A study of Mus musculus with 4 samples.

Results

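The genes described here are those of the cornified envelope and the S100A family, as measured in hair follicle stem cells (HF-SCs) of mouse back skin. They were chosen by name and by a mean normalized count above 0, with earlier results of these data known. The names were every *Lce*, *Sprr* and *S100a* gene together with 14 further genes listed one by one. Those 14 were *Ivl*, *Lor*, *Flg*, *Flg2*, *Hrnr*, *Rptn*, *Tchh*, *Tchhl1*, *Crct1*, *Tgm1*, *Tgm3*, *Cnfn*, *Lgals7* and *2310007B03Rik*. This gave 55 genes among 17044 genes with a mean above 0, in a table of 24421 genes. They comprised 16 *Lce* genes, 12 *Sprr* genes, 14 *S100a* genes and 13 other envelope genes. A further 9 genes of these names were listed at 0, and *Flg* had no row.

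Bulk RNA-seq was performed on FACS-purified HF-SCs from 4 mouse samples, 2 control and 2 *miR-205* induced, all labelled C57BL/6 and taken at postnatal day 44. All mice carried a K14-H2BGFP allele, and live cells were gated as GFP-high, Sca1-negative, α6 integrin-high and CD34-high. The induced mice carried a tetracycline-responsive *miR-205* transgene, made in FVB mice in several lines, with the rtTA activator under the *Krt14* promoter, which acts throughout the basal layer of the epidermis and follicle and not in HF-SCs alone. Doxycycline chow was given for 2 days from day 42. The sample labels give the controls as untreated, whereas the protocol has both groups fed doxycycline, and the alleles other than K14-H2BGFP in the controls were not given in the sources used here. The methods speak of pairs of control and inducible animals and of littermate controls, without saying which samples shared a litter or whether a sample came from 1 mouse or several.

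The cornified envelope is the cross-linked protein shell that replaces the plasma membrane of a keratinocyte at the end of its differentiation. Transglutaminases join loricrin, involucrin, small proline-rich proteins and late cornified envelope proteins into this shell in the suprabasal epidermis and the upper follicle, and much of the group lies in a gene cluster known as the epidermal differentiation complex. S100A proteins are small calcium-binding proteins whose genes flank the same cluster, and several of them are made in basal as well as differentiated keratinocytes.

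The values used were the authors' mean normalized counts over all 4 libraries. The comparison of induced with control HF-SCs was deposited as the authors' own fold changes and p-values, which were not used here, so no difference between the groups is given. For genes with a mean under 1000, the mean could be separated into the whole read counts of 4 libraries, here L1 to L4 from the largest size factor to the smallest. These libraries carry no group label and were put in no group, so values by library mix both groups and are given as values without a test. The size factors that scale the libraries were 1.24, 1.18, 0.966 and 0.716 for L1 to L4. Marker genes of HF-SCs were abundant, with *Krt15* at 119883, *Cd34* at 14575, *Sox9* at 5555 and *Lgr5* at 4432 normalized counts, and all 10 HF-SC markers examined were over 10. Genes of suprabasal epidermis were present too, with *Krt10* at 7246 and *Krt1* at 2033, and *Ly6a*, which encodes the Sca1 antigen gated against, was at 136. The other upper follicle markers examined were higher than *Ly6a*, with *Plet1* at 7500, *Lrig1* at 1755 and *Krt79* at 1735. In bulk RNA, few cells with much of a transcript and many cells with little of it cannot be told apart.

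The promoters of 4 genes are shown first, because *Sprr1a*, *Lce1m* and *S100a6* had the highest level per kb of their families and *Lor* encodes the main envelope protein. Each is the 250 bases before the annotated start, from RefSeq on GRCm38.p6, written 5′ to 3′ on the strand of the gene. Capitals mark TGANTCA, a loose form of the AP-1 motif in which N is any base, and TATAAA, the TATA motif.
Sprr1a (chr3:92485882-92486131, minus strand): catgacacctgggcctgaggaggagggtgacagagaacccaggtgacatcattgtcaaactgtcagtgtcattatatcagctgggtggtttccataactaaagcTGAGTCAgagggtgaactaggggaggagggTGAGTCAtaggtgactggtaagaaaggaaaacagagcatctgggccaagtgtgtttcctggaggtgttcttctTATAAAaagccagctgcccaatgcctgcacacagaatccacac
Lor (chr3:92083143-92083392, minus strand): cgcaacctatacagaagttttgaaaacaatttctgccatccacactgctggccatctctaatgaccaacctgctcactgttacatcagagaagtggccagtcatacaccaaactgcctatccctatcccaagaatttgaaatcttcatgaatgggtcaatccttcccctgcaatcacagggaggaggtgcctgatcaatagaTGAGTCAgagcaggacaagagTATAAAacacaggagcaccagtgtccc
Lce1m (chr3:93019062-93019311, minus strand): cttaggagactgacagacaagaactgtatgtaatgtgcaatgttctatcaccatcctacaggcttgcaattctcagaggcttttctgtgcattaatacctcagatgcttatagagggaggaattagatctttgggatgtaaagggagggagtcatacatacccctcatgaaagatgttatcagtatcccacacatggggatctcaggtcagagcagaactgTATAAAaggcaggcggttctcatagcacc
S100a6 (chr3:90612644-90612893, plus strand): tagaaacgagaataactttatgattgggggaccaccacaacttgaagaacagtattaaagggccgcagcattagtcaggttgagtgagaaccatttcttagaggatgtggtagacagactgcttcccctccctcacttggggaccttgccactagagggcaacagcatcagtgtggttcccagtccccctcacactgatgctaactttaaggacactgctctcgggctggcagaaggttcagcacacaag

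Across all 55 genes the levels were spread over more than 4 orders of magnitude, from 0.349 for *Lce3d* to 9254 for *S100a6*. The median gene had a mean of 21.9, compared with 117 for all genes with a mean above 0, and lay at percentile 31.7 of them. A mean over 10 was reached by 31 of the 55 genes, or by 30 when library L3 was left out, whereas 74.5% of all genes exceeded 10. A mean over 1000 was reached by 8 of them, compared with 14.4% of all genes. Together the 55 genes held 0.325% of the summed mean of all genes. *S100a* genes made up 71.5% of their sum, the other envelope genes 21.5%, *Sprr* genes 5.97% and *Lce* genes 1.08%, and the 3 highest genes alone held 50.9%. The lectin gene *Lgals7*, with a mean of 6904, held most of the 9148 summed over the other envelope genes. Because genes of different length collect reads in proportion to their length, levels of different genes were compared per kb of gene model, available for 53 of them. On that scale the median *S100a* gene lay at percentile 91.8 of all genes, the median other envelope gene at 58.2, the median *Lce* gene at 35.3 and the median *Sprr* gene at 23.0. By summed mean and by median per kb, *S100a* genes were thus the most abundant family, though that median leaves out *S100a2*, which had no gene model. Gene by gene the families overlapped. Per kb, *Sprr1a* at 3032 exceeded *S100a16* at 1022, and *Lor* at 340 exceeded *S100a3* at 163.

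**Figure D1:**
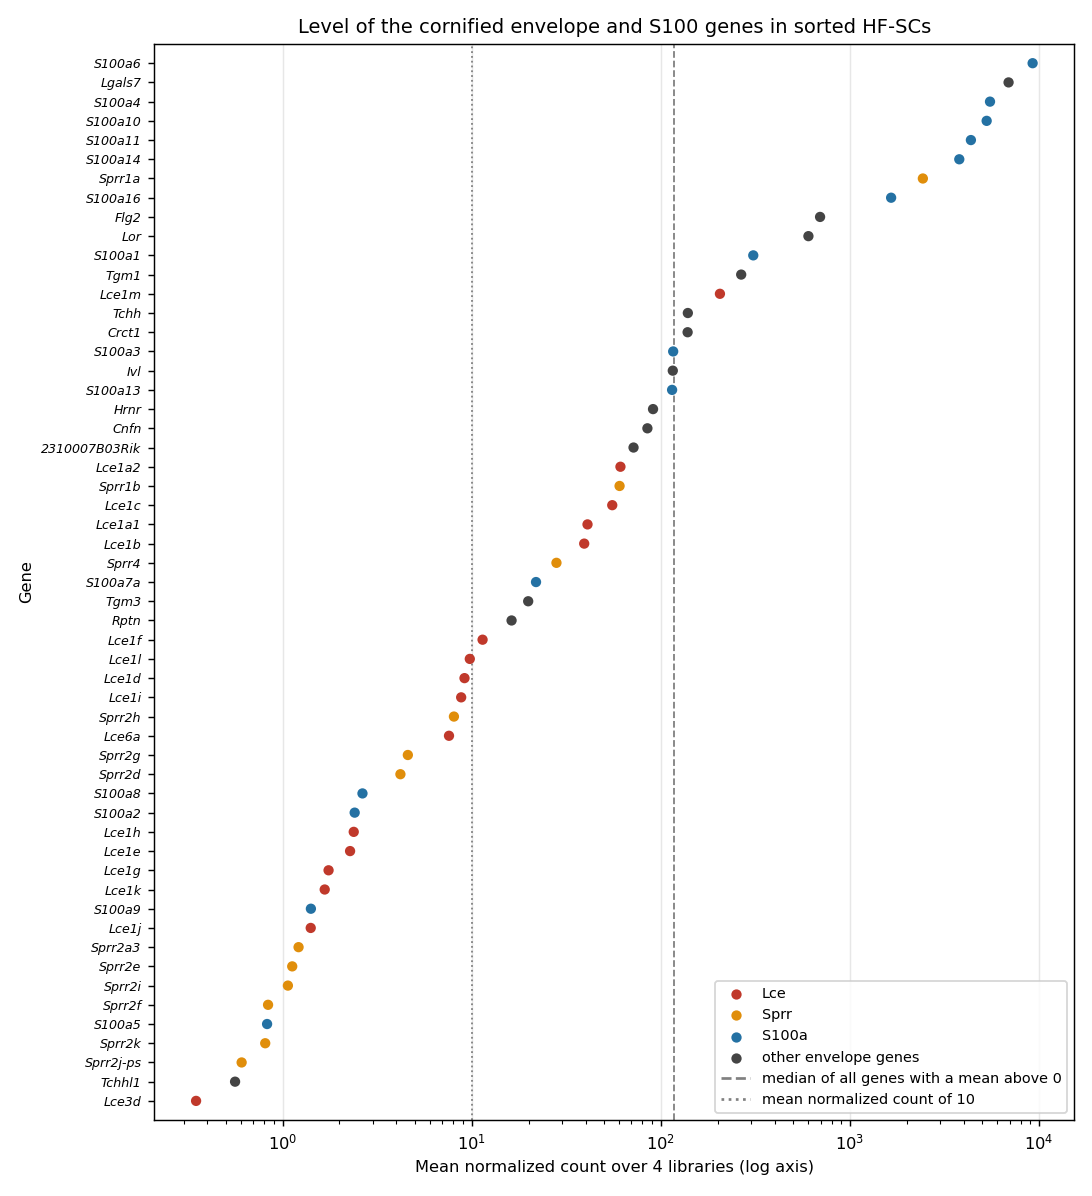
Mean normalized count over 4 libraries on a log axis (horizontal) for each of the 55 genes (vertical), coloured by family; the dashed line is the median of all genes with a mean above 0, 117, and the dotted line is 10. S100a genes fill most of the upper end, and most Lce and Sprr genes lie under 10.

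Among *S100a* genes, 6 had means over 1000 and 4 had at most 11 reads over all libraries, so that the family spanned almost the whole range of the group. *S100a6*, known as calcyclin, had a mean of 9254 and 12870 per kb, which placed it at percentile 99.8 of all genes per kb. *S100a4*, a gene of motile and mesenchymal cells, had a mean of 5508 and 9383 per kb, and *S100a11*, a partner of annexin A1, 4365 and 8542 per kb. *S100a10*, the partner of annexin A2, followed at 5288 with 4363 per kb, then *S100a14* at 3789 with 3489 per kb and *S100a16* at 1652 with 1022 per kb. These 6 were the only *S100a* genes over 1000, and the lowest of them lay at percentile 96.6 per kb. Of 12 relatives and partners of the S100 proteins, 8 had a mean over 10, compared with 74.5% of all genes with a mean above 0. The highest were *Ahnak*, a large scaffold protein that binds the S100A10 and annexin A2 complex, at 90333, *Anxa2* at 22406 and *Anxa1* at 14369.9. *S100b* at 9.22, *Tlr4* at 7.28, *S100z* at 0.202 and *S100g* at 0 were not over 10. The 7 relatives and partners with means under 1000 summed to 708, 612, 591 and 579 normalized counts in L1 to L4.

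Below these came 4 *S100a* genes with means between 10 and 1000, for which the libraries could be read singly. *S100a1*, best known from muscle, had normalized counts of 353, 222, 304 and 355 in L1 to L4. *S100a3*, a gene of the hair cuticle, had 162, 79.7, 111 and 113. *S100a13*, which takes part in the release of fibroblast growth factor 1, had 133, 99.3, 119 and 107. L2 had the lowest value in these 3 genes, as in 20.4% of all genes with means from 10 to 1000. The highest library exceeded the lowest by 1.60-, 2.03- and 1.34-fold. For *S100a13* the counting intervals of L1, the highest, and L2 overlapped, so L2 was not clearly lowest there. *S100a7a*, a relative of psoriasin that marks inflamed epidermis, was lower, at 29.9, 17.0, 11.4 and 29.3, with L3 lowest. Levels of *S100a1* and *S100a13* are uncertain because the 2 RefSeq genes overlap, and the whole of *S100a2* lies within the span of *S100a3*. Whether the counting used strand was not given in the sources used here.

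*S100a8* and *S100a9*, which together form calprotectin of neutrophils and of wounded epidermis, were near 0. *S100a8* had 1, 5, 4 and 1 reads in L1 to L4, and *S100a9* had 0, 3, 3 and 0. Of the 9 neutrophil markers examined, *Mpo*, *Elane*, *Camp*, *Ngp* and *Ltf* were at 0 in all 4 libraries, *Ly6g* had no row, and *Csf3r* had the highest mean at 9.96. The 8 with a row summed to 6.47, 20.4, 15.5 and 5.58 normalized counts in L1 to L4. The receptors for secreted S100 proteins were low as well, with *Ager* at 13.8 and *Tlr4* at 7.28. *S100a2* and *S100a5* had means of 2.41 and 0.828. A count of 0 in a library allows up to 3 reads there, and this limit covers counting error only.

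The other envelope genes, among them scaffold and cross-linking genes, came next in level. *Lgals7*, which encodes galectin-7, a lectin of stratified epithelia, stood far above the rest at 6904, or 7448 per kb. Loricrin (*Lor*), the main structural protein of the epidermal envelope, had 422, 623, 1183 and 187 normalized counts in L1 to L4. *Flg2*, a filaggrin relative, had 514, 481, 1537 and 251. In both genes L3 was the highest library and L4 the lowest, by 6.32- and 6.12-fold, and without L3 the mean of *Flg2* went from 696 to 415. Involucrin (*Ivl*), an early scaffold protein, varied less, with 116, 114, 154 and 79.6. *Tgm1*, the membrane-bound transglutaminase that cross-links the envelope, had 286, 200, 334 and 244, and *Tgm3*, its soluble counterpart, 12.1, 14.4, 27.9 and 25.1. Per kb the means of *Tgm1* and *Tgm3* were 88.6 and 4.81. The highest library exceeded the lowest by 1.67-fold for *Tgm1* and 1.94-fold for *Ivl*, less than for *Lor* and *Flg2*.

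Cornifelin, hornerin and *Crct1*, further proteins of the envelope, were also highest in L3. Cornifelin (*Cnfn*) had 55.0, 41.6, 195 and 48.9 normalized counts in L1 to L4, and hornerin (*Hrnr*) 60.6, 66.2, 184 and 53.0. *Crct1* had 113, 102, 259 and 81.0. In each of these 3 genes the 95% counting intervals of L3 and of the next library did not overlap. *2310007B03Rik* had 33.2, 91.6, 143 and 19.5, so that L2 was high next to L3. Trichohyalin (*Tchh*), a protein of the inner root sheath and the hair medulla, had 158, 146, 167 and 85.2, and the 95% counting intervals of L3 and L1 overlapped. *Rptn* was low at 9.70, 20.4, 23.8 and 11.2, and *Tchhl1* had 2 reads in all.

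The *Sprr* genes, whose products act as flexible cross-bridges in the envelope, were dominated by 1 member. *Sprr1a* had a mean of 2432, or 3032 per kb, at percentile 98.8 of all genes per kb. Its neighbour *Sprr1b* had 38.8, 50.05, 105 and 48.9 normalized counts in L1 to L4, or 73.9 per kb on average. The promoters of both genes held TGANTCA and TATAAA, the former as TGAGTCA in *Sprr1a* and as TGAATCA in *Sprr1b*. *Sprr4* had 18.6, 35.6, 45.5 and 12.6. All *Sprr2* genes were at or under 10, and the highest of them, *Sprr2h*, had 5, 10, 15 and 3 reads. In all, 9 *Sprr* genes were at 10 or less, with between 2 and 33 reads over the 4 libraries, and *Sprr3* and *Sprr2b* were at 0.

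Reads of *Sprr2a1* and *Sprr2a2* could hardly be told apart. The coding sequences of *Sprr2a1* and *Sprr2a2* were identical over 252 bases, and 91.2% of the 150-base windows of either transcript, the length of 1 read, also occurred in another *Sprr2a* transcript. *Sprr2a1* and *Sprr2a2* were listed at 0, and *Sprr2a3*, of whose windows 6.46% were shared, had 0, 0, 2 and 2 reads. Within the coding sequence *Sprr2a3* differed from *Sprr2a1* at 3 positions counted from the first coding base, G63A, G159T and A192T. The stretch around the first of these, coding bases 43 to 102, is shown with that base in capitals, because it shows how closely the copies match.
Sprr2a1: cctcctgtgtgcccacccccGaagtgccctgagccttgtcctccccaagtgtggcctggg
Sprr2a3: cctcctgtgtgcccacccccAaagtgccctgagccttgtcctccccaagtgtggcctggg

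*Lce* genes, whose products are added to the envelope last, mostly had low means with no scaling to length, and *Lce1m* was the highest. Per kb, *Lce1m* lay at percentile 83.7 of all genes and *Lce1a2* at 65.2. *Lce1c* followed at 62.7, *Lce1b* at 58.0 and *Lce1a1* at 57.0, with the median *Lce* gene at 35.3. *Lce1m* had 129, 249, 391 and 53.0 normalized counts in L1 to L4, with L3 highest and a 7.37-fold range. The next, *Lce1a2*, had 8.90, 88.2, 113 and 34.9, and *Lce1c* had 9.70, 62.8, 113 and 36.3. In both genes L1 was the lowest library, by 12.7- and 11.6-fold. *Lce1a1* had 13.7, 54.3, 65.2 and 30.7, and *Lce1b* had 7.28, 58.5, 69.3 and 22.3, so that L2 and L3 were both high and overlapped in their counting intervals. *Lce1f*, the last over 10, had 3, 11, 22 and 8 reads. The other 10 *Lce* genes had means between 0.349 and 9.78, and of the *Lce3* genes, which are best known from wounded and psoriatic skin, only *Lce3d* had a read, a single one. *Lce3d* shared 99.3% of its coding bases with *Lce3f*, which was at 0, and 13 of the 53 genes with a coding sequence had at least 90% coding identity with another gene of these names. The *Lce1* pairs shared no window of 150 bases, so that reads of full length could in principle be told apart between them.

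With means from 10 to 1000, every gene outside the *S100a* family was highest in the same library. Of the 23 genes with means from 10 to 1000, 19 were not *S100a* genes, and all 19 had their highest normalized count in L3. Among all 10238 genes in this range, 28.0% were highest in L3 and 28.2% in L2. The count was also 19 with size factors recomputed from the separated reads and with scaling to their totals. The 19 genes are not independent, since most lie in the same cluster on chromosome 3 and some *Lce1* genes are close copies. All 19 rest on the same library, so the count describes L3 and was not tested against the 28.0%. Of the 4 *S100a* genes, 3 were highest in L1 and 1 in L4, but in 0 of the 4 was the 95% counting interval of the highest library clear of that of the next, and for *S100a13* it overlapped that of the lowest. These 4 genes are too few to set the family apart from the 28.0% of all genes highest in L3. The 6 *S100a* genes with means over 1000 were not read by library. The 95% counting intervals of L3 and the next library did not overlap in 9 of the 19, and those of L3 and the lowest library in 17, the exceptions being *Tgm3* and *Rptn*. The median ratio of the highest to the lowest library was 3.47 over the 23 genes and 1.39 over all genes in the range, and from 50 to 1000 it was 3.33 over 16 genes and 1.31 over 7889. Relative to genes within 1.5-fold of their own mean, the range of *Lor* exceeded that of 99.8% of genes, and that of *Flg2* and *Lce1m* 99.9%. *Tgm1* and *Ivl* exceeded 92.2% and 88.2%, and *Tgm3* and *Rptn* 50.4% and 51.7%. Of the *S100a* genes, *S100a1* exceeded 90.8%, *S100a3* 90.7%, *S100a7a* 65.2% and *S100a13* 37.4%.

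**Figure D2:**
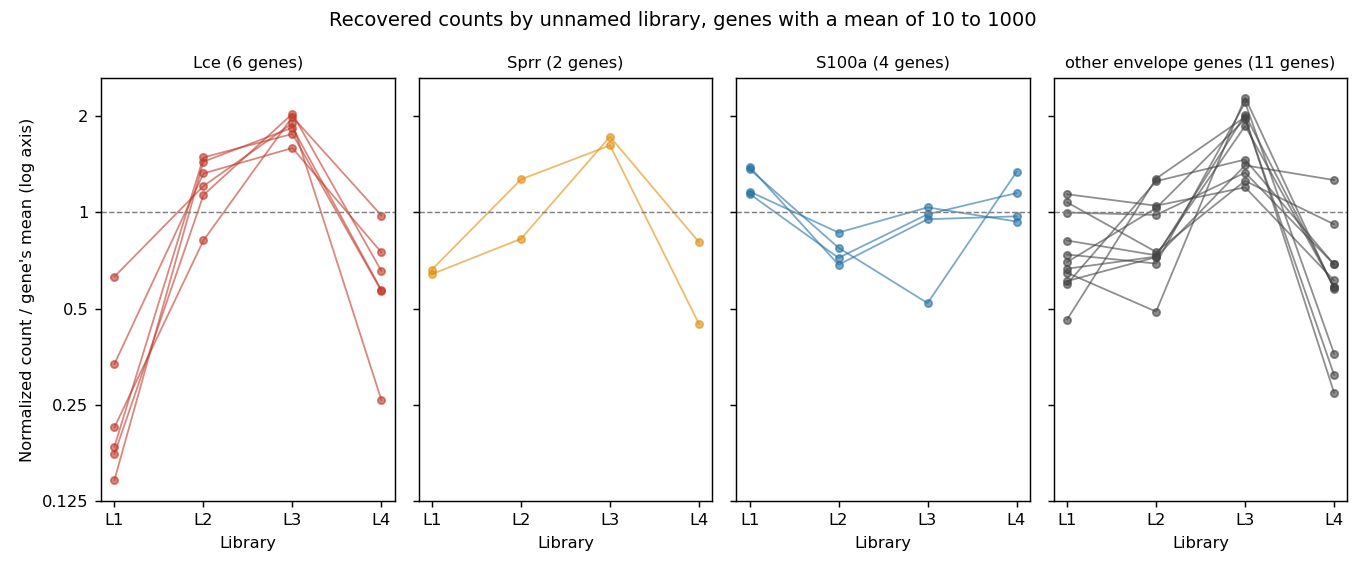
Normalized count divided by the gene's mean (vertical, log axis) in the 4 unnamed libraries (horizontal) for the 23 genes with means from 10 to 1000, 1 line per gene. L3 is the highest point of all 19 genes in the Lce, Sprr and other panels and of none of the 4 S100a genes. The low points of 5 of the 6 Lce genes are in L1, where 30.4% of all genes in this range have their lowest value.

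Summed over each family, for genes with means under 1000, the pattern was the same. *Lce* genes summed to 186, 576, 849.6 and 225 normalized counts in L1 to L4, and the other envelope genes to 1780, 1900, 4207 and 1087. *Sprr* genes without *Sprr1a* summed to 72.0, 101, 189 and 82.4. L3 was therefore highest in all 3 families. *S100a* genes summed to 684, 427, 553 and 611, with L1 highest. The 8 genes with means over 1000, among them *Sprr1a* and *Lgals7*, were not read by library.

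Other genes of cornification, which are not in the group itself, were mostly highest in the same library. Of 28 such genes, 27 had a mean over 10, compared with 74.5% of all genes. The median mean of the 28 was 543 with no scaling to length. Of the 17 with means from 10 to 1000, 16 were highest in L3 and 1, *Aloxe3*, in L1. Of all genes in this range, 28.0% were highest in L3. The 17 genes were read in the same libraries as the envelope genes, so they are not a separate observation of L3. *Asprv1*, which encodes the protease that processes filaggrin, had 358, 497, 928 and 313 normalized counts in L1 to L4, and corneodesmosin (*Cdsn*) had 275, 236, 573 and 184. The regulators of terminal differentiation did not share one order, since of 9 in this range 4 were highest in L3, 3 in L1 and 2 in L4. *Zfp750*, which switches on late epidermal genes, had 126, 173, 318 and 96.3, and *Grhl3*, a Grainyhead-like factor of the skin barrier, 176, 148, 340.5 and 155. *Prdm1* had 1207, 703, 862 and 1143. *Klf4*, a factor of differentiating epidermis and also an immediate response gene, had a mean of 51799.

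Markers of some other cell types were also highest in L3, and their part in the envelope result was not tested. The 5 melanocyte markers summed to 843, 691, 2020 and 342 normalized counts in L1 to L4, and all 4 of them with a mean over 10 were highest in L3. Of 7 suprabasal markers, all over 10, the 2 with means under 1000, *Krtdap* and *Dsc1*, summed to 663, 642, 1089.7 and 609, and both of them are also among the cornification genes above. Both lists were thus highest in L3 and lowest in L4. Macrophage and Langerhans cell markers summed to 889, 1484, 1375 and 744 over 5 genes, highest in L2, and 3 fibroblast markers to 1038, 767, 1078 and 593. Sebaceous gland markers summed to 1503, 1533, 1854 and 952 over 4 genes. In these lists the highest library exceeded the lowest by less than in the melanocyte list. Markers of the same lists with means over 1000 were not read by library and are not in the sums. They were *Col1a1* at 5186, *Col1a2* at 4699 and *Col3a1* at 3397 for fibroblasts, *Scd1* at 3085 for sebaceous gland and *Cd74* at 2744 for macrophages and Langerhans cells. The 8 inner root sheath and hair shaft markers summed to only 125, 75.5, 85.9 and 87.9, and *Tcf7l1*, the single HF-SC marker under 1000, had 518, 569, 604 and 670. Neither of these was highest in L3. *Ly6a*, the single upper follicle marker under 1000, had 146, 159, 179 and 60.03. L4 was the lowest library also for macrophages and Langerhans cells, fibroblasts, sebaceous gland and *Ly6a*. Of the 11 other envelope genes with means from 10 to 1000, 7 had their lowest value in L4, compared with 26.6% of all genes in this range and with 1 of 6 *Lce* genes.

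**Figure D3:**
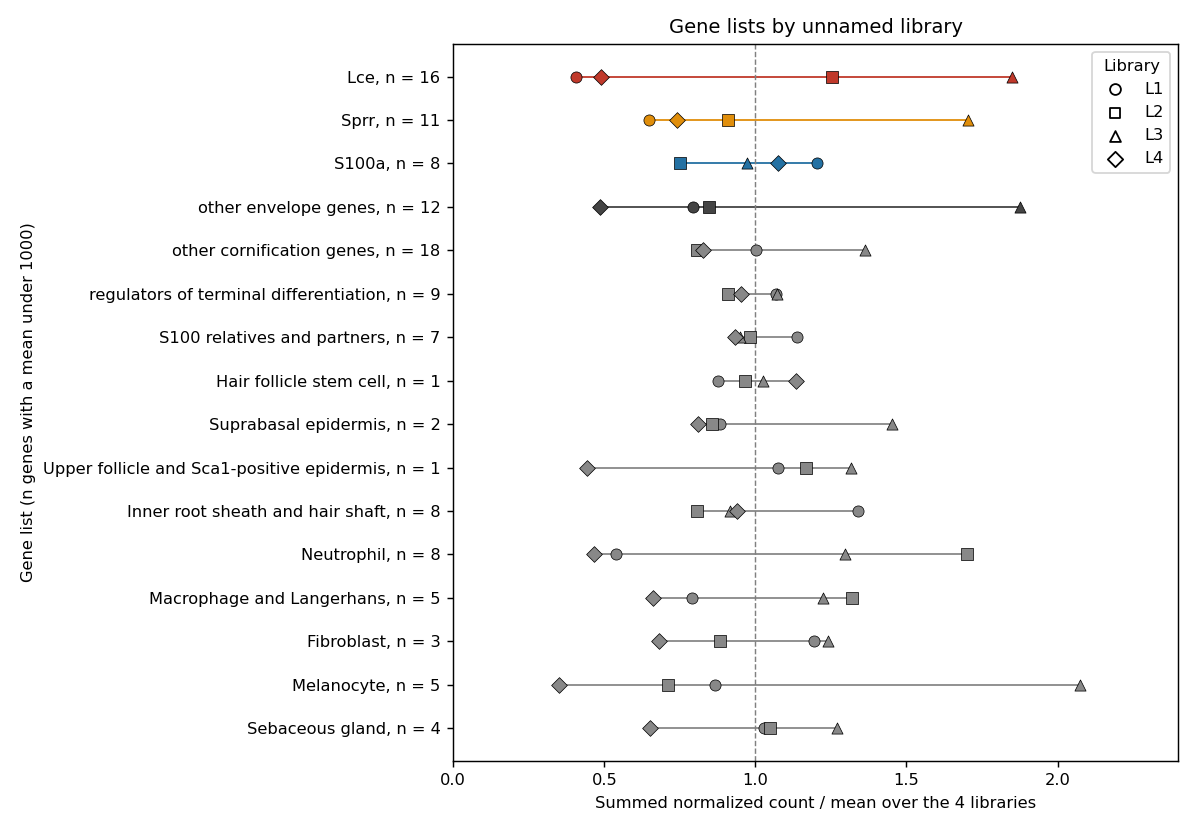
Summed normalized count of each gene list divided by its mean over the 4 libraries (horizontal), for genes with means under 1000, 1 symbol per unnamed library. L3 (triangle) lies farthest right for, among others, Lce, Sprr, other envelope, other cornification, suprabasal and melanocyte genes, and L1 (circle) for S100a genes.

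Of the 55 genes, 50 lay on chromosome 3 between 90511034 and 93564645 on GRCm38.p6, a span of 3054 kb, and 5 lay elsewhere, *Lgals7* and *Cnfn* on chromosome 7, *Tgm1* on 14, *Tgm3* on 2 and *2310007B03Rik* on 1. Neighbours could differ widely in level. At one end 12 *S100a* genes started within 182 kb, from *S100a1* and *S100a13* through *S100a6* to *S100a8* and *S100a9*, and their means ran from 0.828 for *S100a5* to 9254 for *S100a6*, which lay 1.11 kb apart. *S100a11* and *S100a10* closed the other end of the cluster. Between them came *Lor*, the *Sprr* block, *Ivl* and the *Lce* block, and *Crct1* and *Lce1m* were 2.12 kb apart.

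**Figure D4:**
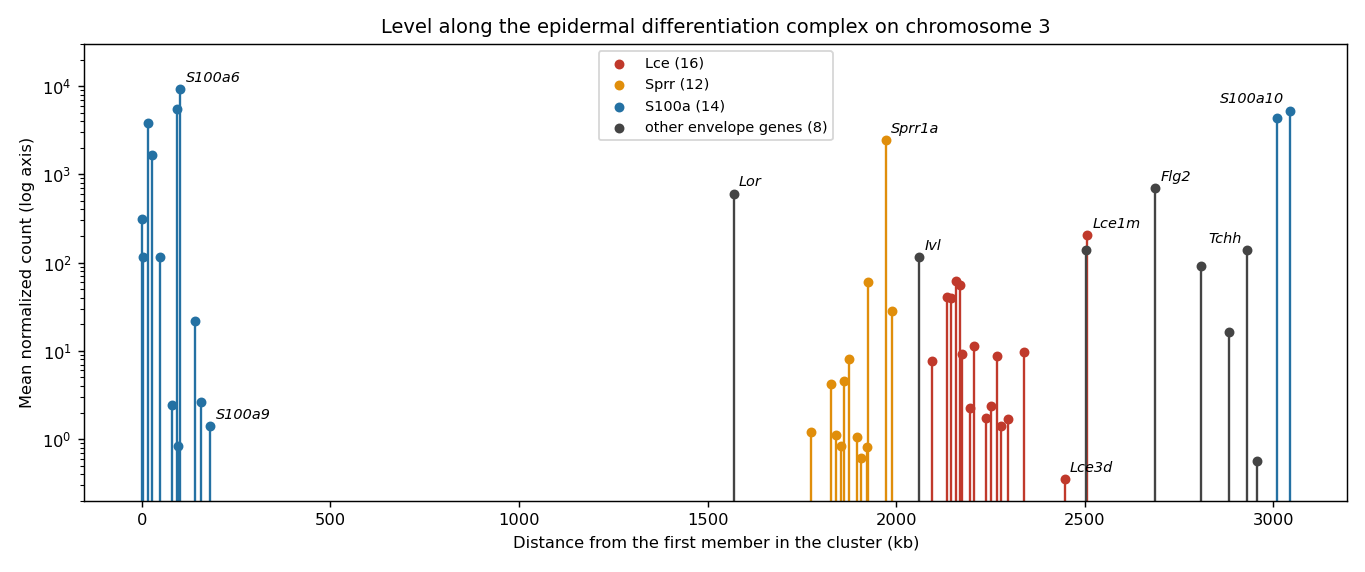
Mean normalized count (vertical, log axis) of the 50 genes on chromosome 3 by distance from the start of S100a1 in kb (horizontal). The S100a genes at both ends include the highest values, Sprr1a and Lor stand above their surroundings, and the Lce block lies mostly under 100.

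The promoters differed by family in the motifs they held. RefSeq gave 54 promoters for 48 of the genes. TGANTCA, which reads the same on both strands, was present in 8 of 10 *Sprr* promoters, 6 of 14 of the other envelope genes, 2 of 15 *S100a* promoters and 0 of 15 *Lce* promoters, and in 6.75% of all 32841 promoters. *Sprr1a* held 2 copies, *Sprr1b* and *Lor* held 1 each, and neither *Lce1m* nor *S100a6* held one. These counts take in TGAATCA, as in *Sprr1b*, *Flg2*, *Tchhl1* and *S100a16*, and TGATTCA, as in *Rptn*. Promoters with TGACTCA or TGAGTCA alone were not counted. TATAAA on the strand of the gene was present in 33.3% of the 54 promoters and 7.59% of all, again in 8 of 10 *Sprr* promoters. The Grainyhead-like motif AACCGGTT, searched on both strands, was in none of the 54 and in 0.116% of all. *Sprr2* promoters are related copies and are not independent, and a match is a description of letters and not a binding site.

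Matches to the seed of *miR-205* were rare among these genes. Mature miR-205-5p is shown with bases 2 to 8 in capitals (RefSeq, GRCm38.p6, chr1:193507503-193507524, minus strand), because its induction is the treatment of the study.
miR-205-5p: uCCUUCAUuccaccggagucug
The matching letters, ATGAAGG, were present in the 3′UTR of 1 of 50 genes, or 2%, compared with 11.7% of 15340 genes with a mean above 0. The 3′UTRs of the group were short, with a median of 232 bases against 1091. The single match was in *Lce1l*, at base 9 of a 3′UTR of 193 bases, and is shown with the site in capitals.
Lce1l: cctgggtcATGAAGGcttcagac
*Lce1l* had 3, 13, 14 and 8 reads in L1 to L4.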

How the data were processed

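The reads of 4 HF-SC samples, 2 of control and 2 of miR-205 induced mice, were processed by the authors, per the labels and methods, with HISAT2 2.1.0, SAMtools 1.3.1, HTSeq and DESeq2, on 150-base paired reads. The build is given as mm10 in the labels and as NCBI37/mm10 in the methods, and the annotation and the versions of HTSeq and DESeq2 that the authors used were not named there. The deposited table holds the authors' mean normalized count, a signal averaged over all 4 libraries after division by size factors. It also holds the authors' log2 fold change, its standard error, a test statistic and p-values, which were not used.

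The table gives means to 15 significant digits. The 4 commonest low means are those of 1 read in 1 library and give the size factors. Each mean under 1000 was then separated into 4 whole counts, within a relative tolerance of 4e-15, which gave exactly 1 solution for all 14591 genes. On simulated data the step returned the true counts for 100% of 14289 genes. The step was not run above 1000, where means were kept whole. The separated reads, 3337862, 3165843, 2594711 and 1912745 in L1 to L4, cover only genes under 1000 and are not the sequencing depth, which is unknown. Counting intervals are exact Poisson intervals at 95%, cover counting error only, and treat reads without molecular identifiers as independent. With no group labels on the libraries, no test between groups was run.

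Lengths, coding sequences and 3′UTRs came from GENCODE vM1, positions and promoters from RefSeq on GRCm38.p6, and no coordinate was converted. Coding identity replaced the planned protein identity, for lack of protein sequences, and was available for 53 of 55 genes. Every gene of the group with a mean over 10 was named, the others by family or where their reads were separated, and others only from lists of cornification genes, regulators, S100 partners and cell type markers. The genes and lists were chosen with earlier results of these data known. The separation into reads, the ranges of mean, the comparison with genes of similar mean, the read windows, the motifs, the other scalings of the libraries and the counting intervals were chosen after values had been seen. Scripts ran under Python 3.11.15 with numba 0.67.0, numpy 2.4.6, Biopython 1.88, pandas 2.3.3 and matplotlib 3.10.9.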

Additional observations from a re-analysis of the deposited data

How the results depend on the processing

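The number of genes with a mean over 10, 31 of 55, was 49 with a mean over 1, and it ran from 30 to 34 when each library was left out in turn. Over genes with separated reads the median mean, 9.78, ran from 7.64 to 12.2 in the same way. The percentile of the median gene, 31.7, was 30.5 over genes with a mean over 1, 32.8 over genes with a mean over 10 and 42.1 per kb. The 3 highest genes held 50.9% of the summed mean, 58.4% per kb and 51.2% without genes that have a near-identical copy. S100a genes held 71.5%, 76.8% per kb and 63.5% without S100a6. Of the 13 genes with a near-identical copy at 90% coding identity, 4 had one at 95%. With 2 other scalings of the libraries, added after the values were seen, all 19 genes outside the *S100a* family were again highest in L3.

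No paired analysis was possible because the separated libraries carry neither the replicate number of a sample label nor a litter, and no comparison of groups was made. Depth limits the low genes most, since those at 10 or less rest on at most 38 reads over 4 libraries. The group of each library is unknown, so differences between mice, between sorts and between control and induced samples cannot be told apart.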
